A study of Mus musculus with 6 samples.

Results

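The VEGF and angiopoietin ligands and receptors were taken as 10 named genes (Vegfa, Vegfb, Vegfc, Pgf, Angpt1, Angpt2, Flt1, Kdr, Flt4 and Nrp1) of the 56884 genes in the count table. All 10 were found by their gene identifiers and all 10 passed the filter on low counts. The RNA came from mouse ectopic lesions, 3 of them controls (WT) and 3 with Dnmt3a deleted (KO), and every lesion gave 1 library. In this model of endometriosis, a piece of uterus from a donor grows as an ectopic lesion in the abdomen of a recipient. WT donors were young adult Dnmt3a f/f females, so the controls carry the floxed alleles too, and KO donors were Dnmt3a f/f:PR-Cre/+ females of the same age, in which Cre is made in cells that express the progesterone receptor. The recipients were syngeneic C57BL/6J females with an estradiol pellet, and the donors of both groups had received estradiol. Cells that enter a lesion from the recipient therefore have an intact Dnmt3a gene in both groups. The labels give 4 weeks of disease and tissue injected into the peritoneal cavity, while the methods give a shorter time and a fragment sutured to the mesentery.

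VEGF-A is the main growth signal for blood vessel endothelium and acts through the receptor tyrosine kinases Kdr and Flt1. VEGF-B and placental growth factor bind Flt1, which also works as a decoy, VEGF-C drives lymphatic growth through Flt4, and Nrp1 is a co-receptor that also binds class 3 semaphorins. Angpt1 steadies vessels by activating the receptor Tek (Tie2), and Angpt2 competes with it and loosens vessels. Endometriotic lesions depend on vessels that grow in from their surroundings.

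The libraries held 45370342 to 57239184 counts, and the members had between 108 counts (Pgf) and 8466 counts (Nrp1) in a library. Counting error weighs most in the members of lowest count, Pgf (108 to 202 counts) and Vegfc (112 to 277 counts). It was not separated from the spread between lesions. Levels are given as CPM, counts per 1000000 counts after TMM scaling of the libraries. The targeted gene Dnmt3a had 43.9 to 52.7 CPM in WT and 30.3 to 36.2 CPM in KO lesions. Markers of other tissue moved with single libraries. Of 10 skeletal muscle markers, whose sum was 34870 and 36380 CPM in WT replicates 1 and 3, the sum was 5.09 CPM in WT replicate 2 and 7.67 to 14.8 CPM in KO lesions. Myh1 and Myh4, named after their values were seen, were at 0 counts in all 3 KO lesions. The neutrophil gene S100a9 was at 5263 CPM in WT replicate 2 and at 2.38 to 240.1 CPM elsewhere. All 5 adipocyte markers were highest in KO replicate 3, where they summed to 3280 CPM (391 to 718 CPM in the other KO and 729 to 2269 CPM in the WT lesions).

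To determine whether the vessel growth system differed between Dnmt3a KO and control ectopic lesions, the members were read from a model of KO against WT fitted over 18177 genes. The methods give 3 donors a group but the labels do not tie a lesion to a donor, so that the p-values measure the spread between these lesions. Vegfc was the only member past the threshold, which asks for a p-value under 0.05 before adjustment and a log2 fold change (KO against WT) below -1, and 0 members were past it in the other direction. This threshold was passed by 5.85% of all tested genes on the lower side and 3.10% on the higher side, so that 1 member of 10 is near the share of genes in general. Of the members, 7 had a log2 fold change below 0, against 48.6% of all genes, with a median of -0.46 (0.01 over all genes tested). This median moved to -0.21 when KO replicate 2 was left out, to -0.26 when it was WT replicate 2 and to -0.83 when it was KO replicate 3. After Benjamini-Hochberg adjustment 0 of the 10 were under 0.05 in edgeR's quasi-likelihood test (lowest adjusted p = 0.321), against 0.00550% of all genes; at an unadjusted p-value under 0.05 there was 1 member on the lower side (8.16% of all genes) and 0 on the higher side (6.55%), and DESeq2's Wald test gave 1 member, Vegfc, an adjusted p-value under 0.05, against 6.26% of all genes.

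**Figure D1:**
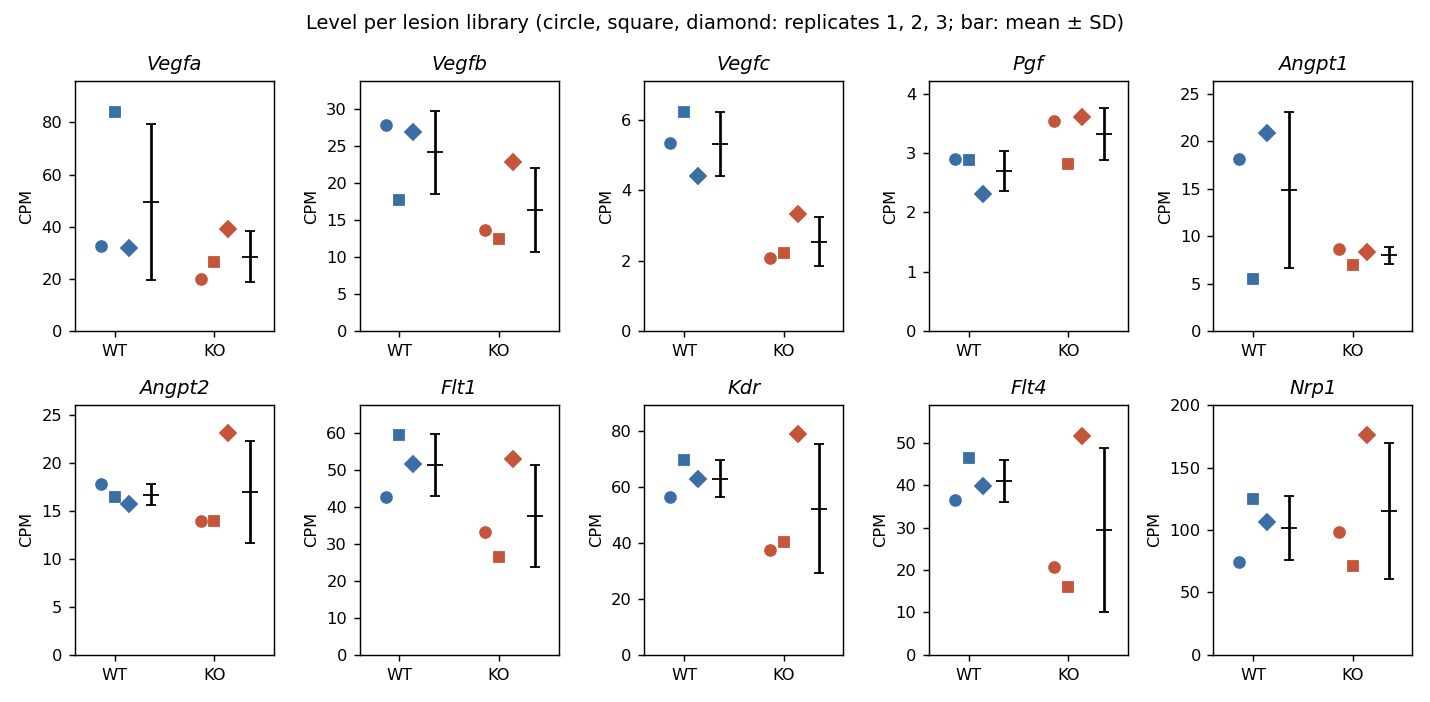
Level in CPM (y axis, from 0) of each member in the 3 WT (blue) and 3 KO (red) lesions, with marks for replicates 1, 2 and 3 and the mean ± SD beside them. Vegfc is the panel without overlap between the groups, and KO replicate 3 (diamond) lies above the other KO lesions for 9 of the 10 genes.

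Vegfc (ENSMUSG00000031520.7, GRCm38 chromosome 8, 54077606 to 54187096, forward strand) encodes the ligand of Flt4 that drives lymphatic vessel growth. Its level was 5.34, 6.24 and 4.40 CPM across the WT lesions against 2.07, 2.22 and 3.33 CPM across the KO lesions. Every KO lesion lay below every WT lesion, which was also the case for 8.74% of all genes tested. The WT mean was 5.32 ± 0.918 CPM and the KO mean 2.54 ± 0.690 CPM (each with its SD, n = 3), and the exact two-sided permutation test gave p = 0.1, which is as low as it can go with groups of 3. This came to -1.07 on the log2 scale, with 0.291 as its standard error, SE (unadjusted p = 0.0104, adjusted p = 0.321, edgeR's quasi-likelihood test). It stayed between -1.31 and -0.93 with any lesion left out. Over 14 alternatives the adjusted p-value was lowest in DESeq2's Wald test (0.0145) and highest once KO replicate 2 was left out (0.669), and the call at the threshold was lost with upper quartile scaling (-0.97) and without WT replicate 2 (-0.94), KO replicate 1 (-0.93) or KO replicate 2 (-0.97), each time because the fold change came under 1 while the unadjusted p-value stayed under 0.05.

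Dnmt3a adds methyl groups to cytosines that precede a guanine, so the stretch before the start site of Vegfc is shown with each CG in capitals, beside those of the receptors Kdr and Flt4 that VEGF-C binds. The sequences are the 250 bases before the RefSeq start sites on GRCm38.p6, at chr8:54077282-54077531 (forward strand), chr5:75978456-75978705 (reverse strand) and chr11:49609429-49609678 (forward strand).
Vegfc: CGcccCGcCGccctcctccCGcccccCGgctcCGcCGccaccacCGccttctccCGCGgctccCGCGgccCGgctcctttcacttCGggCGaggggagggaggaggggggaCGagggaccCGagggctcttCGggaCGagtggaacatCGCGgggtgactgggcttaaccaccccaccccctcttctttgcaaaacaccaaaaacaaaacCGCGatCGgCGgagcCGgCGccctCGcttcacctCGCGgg
Kdr: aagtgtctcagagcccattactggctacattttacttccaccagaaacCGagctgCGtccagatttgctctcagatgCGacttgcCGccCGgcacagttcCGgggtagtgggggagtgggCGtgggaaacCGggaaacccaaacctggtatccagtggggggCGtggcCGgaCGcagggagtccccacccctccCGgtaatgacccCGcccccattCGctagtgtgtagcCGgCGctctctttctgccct
Flt4: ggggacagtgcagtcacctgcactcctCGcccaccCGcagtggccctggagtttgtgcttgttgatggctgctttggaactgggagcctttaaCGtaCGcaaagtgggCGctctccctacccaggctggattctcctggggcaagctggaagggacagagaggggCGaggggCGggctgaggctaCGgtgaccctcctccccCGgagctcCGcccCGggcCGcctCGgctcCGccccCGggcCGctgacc
Vegfc held 30 CG in its window, the most of the 8 members with an entry, and Kdr and Flt4 held 16 each, where the median of all 32851 windows of this length was 6. The 30 of Vegfc stand at the 94.8th percentile of those windows. The core of the hypoxia response element, ACGTG on either strand, which contains a CG, was in none of these 3 windows and in 16.6% of all windows. Among all windows of the members, it was found only before 1 start site of Vegfa (chr17:46025164-46025413). Methylation was not measured in these libraries.

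Among the other ligands, Vegfa (ENSMUSG00000023951.19, chromosome 17, 46016993 to 46032369) had 32.6, 83.9 and 32.0 CPM across the WT lesions against 20.2, 26.4 and 39.2 CPM across the KO lesions. WT replicate 2, the library with the high S100a9, stood far above all others, and KO replicate 3 lay above WT replicates 1 and 3. The log2 fold change was -0.79 (SE 0.464, adjusted p = 0.431, edgeR), and it was -0.18 (SE 0.296) without WT replicate 2. The part of neutrophils in this value was not tested.
Vegfb (chromosome 19, 6982473 to 6987651) had 27.8, 17.7 and 26.9 CPM across the WT lesions against 13.7, 12.5 and 22.8 CPM across the KO lesions. KO replicates 1 and 2 were below the WT range and KO replicate 3 was inside it, and the log2 fold change of -0.56 (SE 0.304, adjusted p = 0.402, edgeR) did not pass (-0.88 without KO replicate 3). Pgf (chromosome 12, 85166635 to 85177790), the placental growth factor gene, had the lowest level in WT lesions, at 2.90, 2.88 and 2.31 CPM, and 3.54, 2.82 and 3.61 CPM in KO lesions. Only KO replicate 2 lay within the WT range, and the log2 fold change was 0.30 (SE 0.242, adjusted p = 0.554, edgeR) and 0.18 without WT replicate 3.

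The angiopoietins differed from each other in what moved with them. Angpt1 (chromosome 15, 42424723 to 42676977) had 18.2, 5.47 and 20.9 CPM across the WT lesions against 8.65, 6.95 and 8.38 CPM across the KO lesions. The high values were those of WT replicates 1 and 3, the libraries with skeletal muscle transcripts, and WT replicate 2, without them, had the lowest value of all 6. The log2 fold change was -0.89 (SE 0.486, adjusted p = 0.404, edgeR), and without WT replicate 2 it was -1.29 (SE 0.175, adjusted p = 0.0371, edgeR), whereas without WT replicate 3 it was -0.59. The part of muscle in this value was not tested. Exons of Angpt1 share 737 bases with Gm17473 on the opposite strand, which had 0 to 54 counts in a library.
Angpt2 (chromosome 8, 18690263 to 18741562), which antagonizes Angpt1 at Tek, had 17.9, 16.5 and 15.8 CPM across the WT lesions against 13.95, 13.98 and 23.17 CPM across the KO lesions. KO replicates 1 and 2 were below and KO replicate 3 above all WT lesions, so that the log2 fold change was 0.03 (SE 0.238, adjusted p = 0.965, edgeR), and its sign turned under 5 of the 14 alternatives. The ratio of Angpt2 to Angpt1, both per kilobase, was 1.39, 4.25 and 1.07 in WT and 2.27, 2.83 and 3.90 in KO lesions, and the groups overlapped (log2 difference 0.67, exact two-sided permutation test, p = 0.4).

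The 3 tyrosine kinase receptors, all of them genes of endothelium, shared 1 pattern over the lesions. Kdr (ENSMUSG00000062960.11, chromosome 5, 75932827 to 75978458), the main signalling receptor for VEGF-A, had 56.6, 69.7 and 62.9 CPM across the WT lesions against 37.6, 40.2 and 78.8 CPM across the KO lesions. Flt1 (chromosome 5, 147561604 to 147726011) had 42.6, 59.4 and 51.7 CPM across the WT lesions against 33.3, 26.6 and 53.0 CPM across the KO lesions. Flt4 (chromosome 11, 49609263 to 49652739) had 36.5, 46.3 and 39.9 CPM across the WT lesions against 20.7, 16.1 and 51.5 CPM across the KO lesions. In each of them KO replicates 1 and 2 lay below all WT lesions, while KO replicate 3 was above all WT lesions for Kdr and Flt4 and within their range for Flt1. KO replicates 1 and 2 were below all WT lesions for 22.4% of all genes. The summed macrophage, adipocyte and stromal markers described below had this split too. Those of epithelium, smooth muscle, skeletal muscle and neutrophils did not. The part of admixed tissue in the receptor values was not tested. The log2 fold changes were -0.27 (SE 0.310) for Kdr, -0.45 (0.286) for Flt1 and -0.48 (0.449) for Flt4, with adjusted p-values of 0.678, 0.461 and 0.614 from edgeR. Without KO replicate 3 they were -0.69 (0.142), -0.77 (0.206) and -1.15 (0.192), with adjusted p-values of 0.125, 0.152 and 0.115 from edgeR, and Flt4 came past the threshold. The other KO lesions moved them the other way: Kdr was at -0.08 without KO replicate 1 and -0.11 without KO replicate 2, Flt4 at -0.27 and -0.18, and Flt1 at -0.24 without KO replicate 2. The ratio of Flt1 to Kdr was 0.504, 0.570 and 0.550 in WT and 0.592, 0.441 and 0.450 in KO lesions and overlapped (log2 difference -0.14, exact two-sided permutation test, p = 0.4).
The co-receptor Nrp1 (chromosome 8, 128358604 to 128503363) had 74.3, 124.6 and 106.2 CPM across the WT lesions against 98.5, 71.6 and 176.4 CPM across the KO lesions. KO replicate 3 was again the highest of all 6, and the log2 fold change was 0.18 (SE 0.374, adjusted p = 0.827, edgeR) with all lesions, -0.26 (SE 0.278) without that one, 0.44 and 0.29 without KO replicates 2 and 1 in turn, and 0.36 and 0.0015 without WT replicates 2 and 1 in turn.

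**Figure D2:**
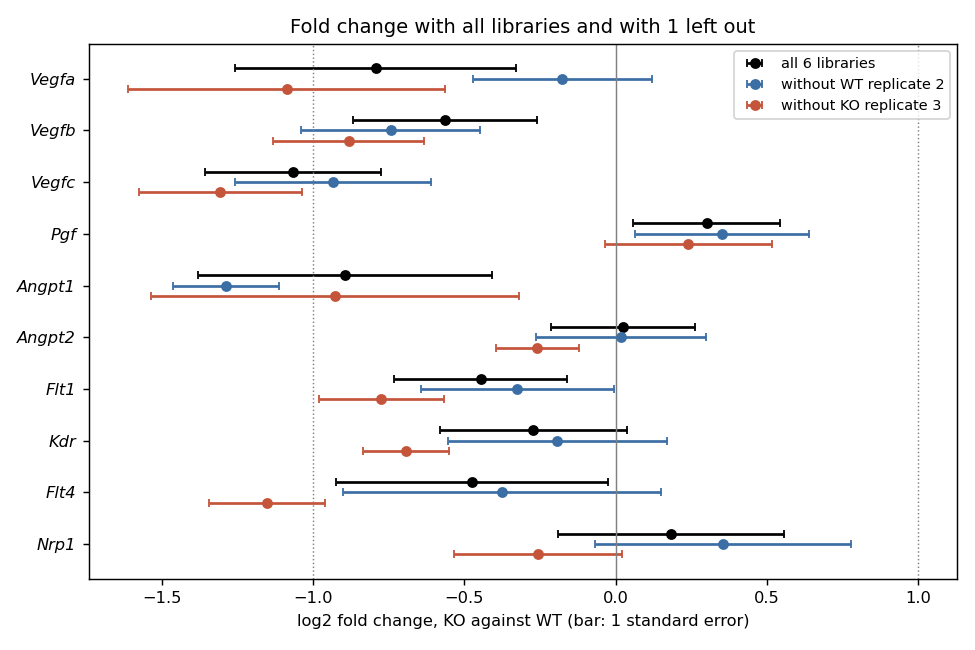
Log2 fold change of KO against WT (x axis, bars of 1 standard error, dotted lines at the threshold of 1) for each member with all 6 libraries (black), without WT replicate 2 (blue) and without KO replicate 3 (red). Vegfa moves most without WT replicate 2, from -0.79 to -0.18, and Flt4 without KO replicate 3, from -0.48 to -1.15.

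Leaving out KO replicate 3 gave 2 members past the threshold, Vegfc and Flt4 (8.66% of all genes tested then), and 5 members lower at an unadjusted p-value under 0.05 (12.4% of all genes). For 7 of the 10 members both remaining KO lesions were below all WT lesions, which was so for 22.3% of all genes. Without WT replicate 2, the members past the threshold numbered 1, Angpt1 in place of Vegfc (5.86% of all genes). With both of these libraries left out, a choice made after seeing the data, 4 members passed (10.6% of all genes): Vegfb, Vegfc, Flt4 and Angpt1.

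Per kilobase of exon, the members in WT lesions were ordered from Vegfb (15.0 ± 3.49 CPM per kilobase, SD, n = 3), Vegfa (11.6 ± 6.95), Nrp1 (10.4 ± 2.60) and Kdr (6.98 ± 0.725) through Flt4 (4.97 ± 0.607), Angpt2 (4.53 ± 0.288), Flt1 (3.80 ± 0.623) and Angpt1 (2.85 ± 1.58) to Vegfc (2.17 ± 0.375) and Pgf (0.929 ± 0.117). The ranges of neighbours in this order overlapped, except between Kdr and Flt4 and between Vegfc and Pgf. In KO lesions Nrp1 was first (11.8 ± 5.56 CPM per kilobase) and Vegfc (1.04 ± 0.282) last, with overlap between Vegfc and Pgf (1.15 ± 0.150).

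To see how far the endothelial receptors moved with endothelial transcripts in general, 14 other endothelial markers were read from the same libraries. They summed to 899, 949 and 778 CPM across the WT lesions against 549, 382 and 1030 CPM across the KO lesions. Pecam1, an adhesion molecule of all endothelium, had 168, 198 and 167 CPM across the WT lesions against 111, 75.3 and 203 CPM across the KO lesions, and Vwf, the von Willebrand factor gene, 171, 149 and 108 CPM across the WT lesions against 55.6, 42.4 and 144 CPM across the KO lesions. Of the 14 markers 12 had a log2 fold change below 0, with a median of -0.40, and 0 were past the threshold in either direction. Those above 0, named after their values were seen, were Sox17 (0.66, SE 0.293) and Emcn (0.03, SE 0.322). For Sox17, KO replicates 1 and 2 lay above all WT lesions (36.9 and 38.5 against 13.9 to 26.7 CPM). It is part of the mean of the 14 markers used below. Leaving out KO replicates 1, 2 and 3 in turn gave medians of -0.27, -0.10 and -0.91. KO replicates 1 and 2 were below all WT lesions for 11 of the 14 (22.4% of all genes), and KO replicate 3 was the highest library for 9 of the 14, where it was the highest for 12.8% of all genes. Without KO replicate 3, 4 of the 14 were past the threshold as lower (8.66% of all genes). In RNA of whole lesions, fewer endothelial cells and less RNA per cell cannot be told apart.
Lymphatic endothelium gave the same split. The 6 lymphatic markers summed to 303 to 336 CPM in WT, 146 and 159 CPM in KO replicates 1 and 2 and 328 CPM in KO replicate 3. Among them Ccl21a had 79.4 to 115 CPM in WT and 55.4 to 112 CPM in KO lesions, and Pdpn 47.5 to 96.0 CPM in WT and 23.8 to 55.4 CPM in KO lesions. All 6 had a log2 fold change below 0 (median -0.71) and 0 were past the threshold. Without KO replicate 3 the median was -1.21 and 4 were past the threshold as lower (8.66% of all genes), and without KO replicate 1 the median was -0.40. The 7 pericyte markers, led by Rgs5 (154 to 195 CPM in WT and 69.9 to 201 CPM in KO) and Pdgfrb (93.1 to 121 CPM in WT and 55.5 to 133 CPM in KO), summed to 382 to 453 CPM in WT and 182 to 442 CPM in KO lesions, with 6 of 7 below 0, a median of -0.36 (-0.18, -0.08 and -0.73 when KO replicates 1, 2 and 3 were left out in turn) and 1, Abcc9, past the threshold as lower. Abcc9, named after its values were seen, had -1.29 (SE 0.413) and missed the threshold without WT replicate 1 or 3 or KO replicate 1 or 2. It had 83.1, 35.5 and 84.4 CPM across the WT lesions against 21.0, 22.8 and 39.0 CPM across the KO lesions, and overlapped. Its high values were those of WT replicates 1 and 3, the libraries with skeletal muscle transcripts, and the part of muscle was not tested. The threshold was passed as lower by 5.85% of all genes.

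**Figure D3:**
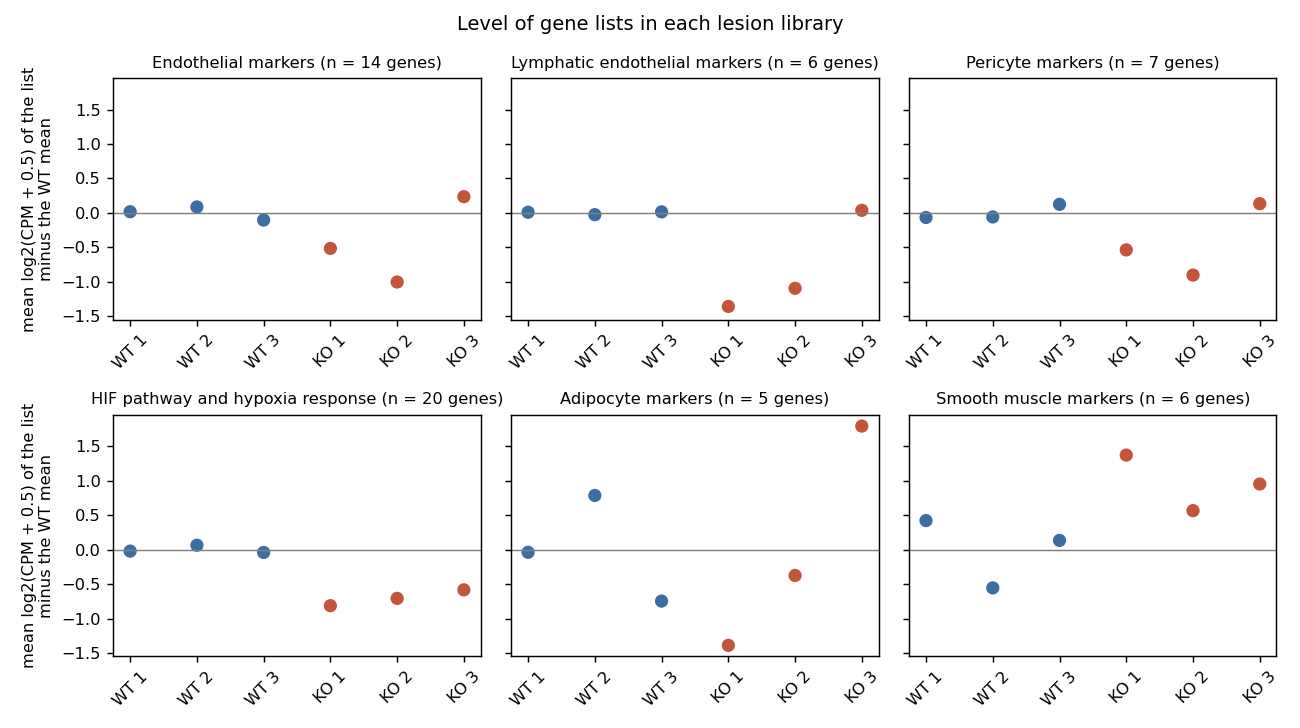
Mean log2(CPM + 0.5) of 6 gene lists in each library, as the difference from the mean of the WT lesions (y axis, shared), for WT (blue) and KO (red) lesions. The endothelial, lymphatic and pericyte lists are low in KO replicates 1 and 2 and at or above the WT mean in KO replicate 3, whereas the HIF and hypoxia list is low in all 3 KO lesions (-0.81, -0.71 and -0.58).

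Set against the mean of the 14 endothelial markers of the same library, on the log2 scale per kilobase, Kdr was at -0.97, -0.74 and -0.69 in WT and -1.02, -0.42 and -0.71 in KO lesions. The difference was 0.08 (exact two-sided permutation test, p = 0.9). Vegfa was at -0.69, 0.61 and -0.59 in WT and -0.84, 0.05 and -0.64 in KO lesions, with a difference of -0.25 (exact two-sided permutation test, p = 0.6) that turned to 0.16 without WT replicate 2. For the remaining members this ratio was computed after seeing the data and is a description. Vegfc was lower in every KO lesion (-3.39 to -2.71) than in any WT lesion (-2.65 to -2.33), as were 4.20% of all genes tested. Pgf, Nrp1 and Angpt2 were higher in every KO lesion than in any WT lesion, as were 6.97% of all genes. Nrp1 had -0.69, -0.01 and -0.05 in WT and 0.26, 0.30 and 0.33 in KO lesions, and Angpt2 had -1.34, -1.52 and -1.39 in WT and -1.16, -0.65 and -1.19 in KO lesions. Flt1, Flt4, Vegfb and Angpt1 overlapped.

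**Figure D4:**
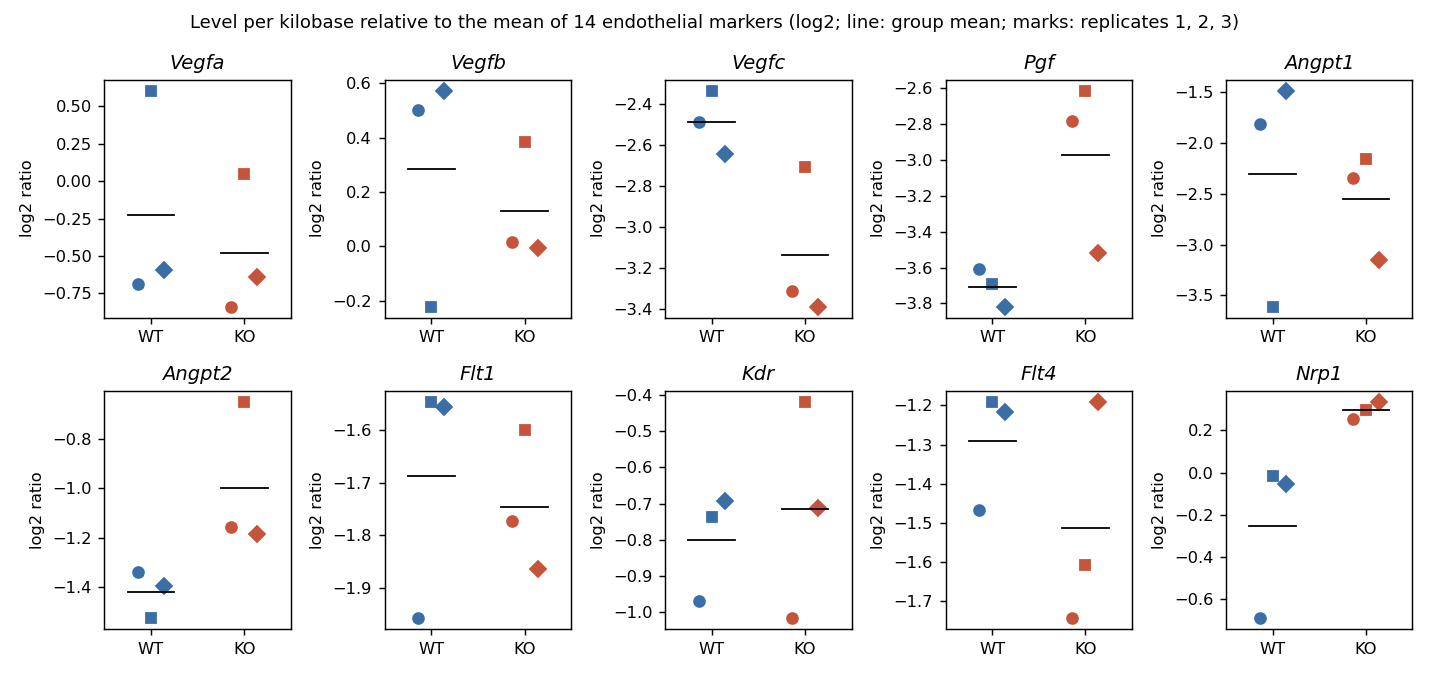
Log2 level per kilobase of each member relative to the mean of 14 endothelial markers in the same library (y axis, a separate range in each panel), for WT (blue) and KO (red) lesions with marks for replicates 1, 2 and 3 and a line at the group mean. Vegfc lies lower and Pgf, Angpt2 and Nrp1 lie higher in all 3 KO lesions, and the other 6 genes overlap.

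The rest of the pathway was read from 4 lists. Of all tested genes, 5.85% were past the threshold as lower and 3.10% as higher, and 8.66% as lower without KO replicate 3. Of 13 other ligands, receptors and co-receptors, 10 had a log2 fold change below 0 (median -0.35, or -0.22, -0.13 and -0.75 when KO replicates 1, 2 and 3 were left out in turn), 0 were past the threshold as lower and 1, Sema3a, as higher. Sema3a encodes a semaphorin that binds Nrp1 and repels growing vessels and axons, and it had 32.0, 12.5 and 20.6 CPM across the WT lesions against 66.3, 50.0 and 34.3 CPM across the KO lesions. All KO lesions were above all WT lesions (10.7% of all genes), with a log2 fold change of 1.21 (SE 0.405, adjusted p = 0.328, edgeR). Its relative Sema3c had 160, 86.1 and 94.3 CPM across the WT lesions against 236, 277 and 162 CPM across the KO lesions, again without overlap (log2 fold change 0.99, SE 0.319, adjusted p = 0.328, edgeR). Sema3a missed the fold threshold or the p-value without WT replicate 2 or 3 or KO replicate 1 or 2, while without KO replicate 3 the list had 3 genes past the threshold as lower and 2 as higher. Nrp2, the co-receptor of VEGF-C, had a log2 fold change of -0.65 (SE 0.413), which was at its lowest, -1.23, without KO replicate 3, and Plxnd1, a semaphorin receptor of endothelium, had -0.43 (SE 0.299).

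Of 24 genes of VEGF receptor signalling, 16 were below 0 (median -0.15, and -0.01 without WT replicate 2 and -0.04 without KO replicate 2), and 1, Rcan1, was past the threshold as lower. Rcan1, a calcineurin inhibitor that VEGF induces through NFAT, had 113, 43.2 and 56.5 CPM across the WT lesions against 28.9, 26.4 and 38.6 CPM across the KO lesions (log2 fold change -1.18, SE 0.388, adjusted p = 0.328, edgeR). The NFAT family gene Nfatc1 had 45.05, 47.02 and 42.42 CPM across the WT lesions against 23.9, 21.4 and 36.2 CPM across the KO lesions (log2 fold change -0.72, SE 0.223, adjusted p = 0.326, edgeR). For both genes every KO lesion was below every WT lesion, and Rcan1 missed the threshold without WT replicate 1 or KO replicate 1 or 2. Mapk3, a kinase of the ERK cascade, had a log2 fold change of 0.44 (SE 0.187) and did not pass.

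HIF is the oxygen-sensing transcription factor that induces Vegfa in hypoxic tissue. In the list of the HIF pathway and hypoxia response, 17 of 20 genes were below 0 (48.6% of all genes), with a median of -0.78, and 3 were past the threshold as lower (5.85% of all genes) and 0 as higher. Every KO lesion lay below every WT lesion for 8 of the 20 (8.74% of all genes). Hk2, the hexokinase at the entry of glycolysis, had 154, 133 and 138 CPM across the WT lesions against 53.7, 54.5 and 56.2 CPM across the KO lesions, a log2 fold change of -1.37 (SE 0.113, adjusted p = 0.171, edgeR). Egln3, a prolyl hydroxylase that HIF induces and that marks HIF for degradation, had 99.7, 103 and 62.9 CPM across the WT lesions against 22.9, 22.6 and 40.8 CPM across the KO lesions, a log2 fold change of -1.62 (SE 0.320, adjusted p = 0.321, edgeR). For Hk2 the 3 KO lesions lay close together, and for Egln3 KO replicate 3 was the highest of them and still below every WT lesion. The third gene was Ankrd37 (-1.52, SE 0.421), named after its values were seen. The glycolytic genes Pgk1 (-0.88, SE 0.205) and Ldha (-0.94, SE 0.244) were lower in every KO lesion without passing the fold threshold. The list had 5 genes past the threshold as lower without WT replicate 2 (5.86% of all genes) and 7 without KO replicate 3 (8.66%). In WT replicate 2, which lacked the skeletal muscle transcripts of WT replicates 1 and 3, Ldha was at 998.5 CPM against 1513 and 1690 CPM in those lesions and Pgk1 at 332.5 against 375.7 and 461.1 CPM. Egln3 (103 CPM) and Ankrd37 (6.91 against 4.98 and 2.69 CPM) were instead highest of the WT lesions in WT replicate 2. The mean log2 level of the list, as the difference from the WT mean, was 0.06 in WT replicate 2. It was -0.02 and -0.04 in WT replicates 1 and 3. The part of muscle in the values of this list was not tested.

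Of 16 genes of endothelial tip cells and sprouting, 11 were below 0 (median -0.38, or -0.22, -0.14 and -0.81 when KO replicates 1, 2 and 3 were left out in turn). Past the threshold as lower were 3 (5.85% of all genes). This count was 1 without WT replicate 2 (5.86%), 0 without KO replicate 1 or 2 and 6 without KO replicate 3 (8.66%). Plaur, the urokinase receptor, had 25.6, 201 and 34.02 CPM across the WT lesions against 9.44, 6.56 and 18.6 CPM across the KO lesions (log2 fold change -2.91, -1.37 without WT replicate 2). Notch4, an endothelial Notch receptor, had 28.4, 46.9 and 29.3 CPM across the WT lesions against 7.999, 5.324 and 22.8 CPM across the KO lesions (log2 fold change -1.54, SE 0.577, adjusted p = 0.332, edgeR). The chemokine receptor Cxcr4 had 18.1, 75.4 and 25.1 CPM across the WT lesions against 12.2, 13.0 and 18.8 CPM across the KO lesions and overlapped. Plaur and Cxcr4, which leukocytes express too, were highest in WT replicate 2, and the part of neutrophils was not tested. The Notch target Hes1 had a log2 fold change of 0.55 (SE 0.273).

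**Figure D5:**
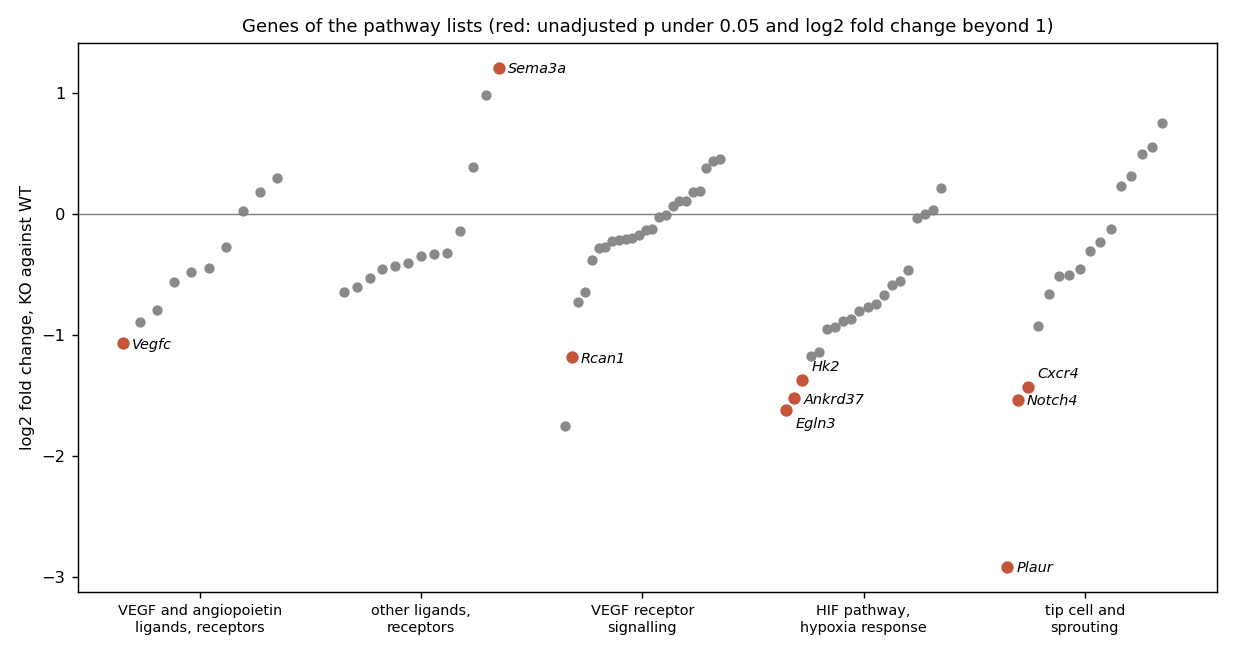
Log2 fold change of KO against WT (y axis) for the members and the genes of 4 pathway lists, sorted within each list, with genes past the threshold in red and named. In the HIF list 17 of 20 points lie below 0, and Sema3a is the one red point above 0.

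The labelled tissue was checked against its markers. The counts below stand beside 5.85% of all tested genes past the threshold as lower and 3.10% as higher, and 8.66% as lower without KO replicate 3. Of 7 endometrial epithelial markers, Foxa2, a transcription factor of uterine glands named after its values were seen, was nearly absent, at 0.128 to 1.45 CPM in WT and 0 to 2.62 CPM in KO lesions with 0 counts in KO replicate 3, and the other 6 had at least 136 CPM in each library. Of the 7, 1 had a log2 fold change below 0 (median 0.53, and 0.31 without WT replicate 2) and 0 were past the threshold. Ltf, an estrogen-induced secretory gene, had 9882 to 19060 CPM in WT and 15670 to 33570 CPM in KO lesions, and Cdh1 345 to 643 CPM in WT and 436 to 877 CPM in KO lesions. Of 8 stromal markers, with Col1a1 at 2247 to 2784 CPM in WT and 720 to 3446 CPM in KO lesions and Dcn at 1729 to 2161 CPM in WT and 1075 to 2202 CPM in KO lesions, 3 were past the threshold as higher, Esr1, Hand2 and Hoxa11, and 3 had a log2 fold change below 0, Pdgfra (-0.86), Col1a1 (-0.46) and Dcn (-0.43). Without KO replicate 3, 2 stromal markers were past the threshold as lower. All 6 smooth muscle markers were above 0 (median 0.86) and 2, Cnn1 and Actg2, passed as higher. Esr1, Hand2, Hoxa11, Pdgfra, Cnn1 and Actg2 were named after their values were seen. With single libraries left out the count of stromal markers past the threshold as higher ran from 0 (without KO replicate 1) to 3 and was 1 without WT replicate 1 or 2, and the smooth muscle count ran from 1 (without KO replicate 1) to 4 (without WT replicate 1). Acta2, shared by smooth muscle and pericytes, had 388 to 1023 CPM in WT and 819 to 1460 CPM in KO lesions, and Tagln 272 to 696 CPM in WT and 487 to 911 CPM in KO lesions. The 7 macrophage markers summed to 1017 to 2404 CPM in WT and 478 to 1231 CPM in KO lesions, with 7 below 0 (median -0.96) and 0 past the threshold (5 as lower without KO replicate 3), and the median was -0.37 without WT replicate 2 and -1.53 without KO replicate 3. C1qb had 263 to 525 CPM in WT and 105 to 272 CPM in KO lesions, and Csf1r 196 to 594 CPM in WT and 93.0 to 264 CPM in KO lesions. Of 8 neutrophil markers 7 were below 0 and 4 passed as lower, while 0 passed without WT replicate 2 or KO replicate 1 or 2. Their sum was 6115 to 15480 CPM in WT and 6475 to 12670 CPM in KO lesions, most of it in KO lesions from Lcn2, which epithelium also makes. All 8 tested skeletal muscle markers were past the threshold as lower, with Acta1 at 1.08 to 11490 CPM in WT and 4.93 to 12.9 CPM in KO lesions and Atp2a1 at 0.225 to 5634 CPM in WT and 0.0351 to 0.292 CPM in KO lesions. Of 5 adipocyte markers 1 was below 0 (median 0.40) and 0 passed. The direction rested on KO replicate 3, without which all 5 were below 0 (median -0.97), with Fabp4 over all libraries at 430 to 1403 CPM in WT and 193 to 1648 CPM in KO lesions and Adipoq at 129 to 312 CPM in WT and 83.6 to 687 CPM in KO lesions.

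Lastly, the genes whose log2 CPM followed each member most closely over the 6 libraries were looked up among 15036 genes. Closest to Vegfc were Egln3 (Pearson r = 0.992) and Lrrn4cl (0.992). Vegfa was followed by Pfkfb3 (0.999), a glycolytic regulator with 795 CPM in WT replicate 2 and 42.4 to 155 CPM elsewhere, and by Lsm10 (0.995). Angpt1 was followed by the tropomyosin gene Tpm1 (0.997) and the sodium channel subunit Scn4b (0.995), both high in WT replicates 1 and 3. For Flt1 these were Calcrl (0.993), a receptor of endothelium for adrenomedullin, and Atp8b2 (0.993), for Kdr Ckap4 (0.996) and Sec16b (0.992), and for Flt4 Klhl20 (0.998) and Grk5 (0.997). Vegfb was followed by Rock2 (0.998) and Sec31b (0.998), Angpt2 by Ube4b (0.997) and Magee1 (0.993), Nrp1 by Nup133 (0.996) and Pla1a (0.991), and Pgf by AC098880.2 (0.963) and Gm9951 (0.962). The number of genes with r over 0.9 ran from 41 for Pgf, 75 for Nrp1 and 217 for Angpt2 to 568 for Vegfc and 886 for Vegfa. The libraries share their group, depth and admixed tissue, and these values describe them only.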

How the data were processed

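Messenger RNA of 6 ectopic lesions (3 WT, 3 KO) was measured as 1 library each, with groups from the sample titles. The deposited values are raw counts per gene, which the authors made by trimming, mapping and counting on Galaxy. The submitters' processing notes name Trimmomatic, featureCounts, DESeq2 and GRCm39, whereas the methods name GRCm38; the aligner, the strand setting and the versions of these programs, other than that of Galaxy, are not given in the sources used here. Symbols, exon lengths and positions came from GENCODE M21 on GRCm38, in which 51948 of 56884 identifiers were found without their version, and promoters from RefSeq (GRCm38.p6, 8 of 10 members matched), so positions can differ from the gene models that were counted. Identifiers without a symbol held 3.04% to 3.56% of the counts.

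In edgeR 4.0.16 (R 4.3.3), filterByExpr kept 18177 genes, TMM scaled the libraries, and KO was tested against WT by quasi-likelihood with no other term and Benjamini-Hochberg adjustment over all genes. The threshold, which asks for a p-value under 0.05 before adjustment and a log2 fold change beyond 1, is that of the study. Standard errors are the log2 fold change divided by the root of F. Ratios used a prior count of 0.5 and exact permutation tests (scipy 1.17.1). Alternatives were other scalings and filters, DESeq2 1.42.0, limma 3.58.1 voom with quality weights, a replicate term and each library left out, with 1 more chosen after seeing the data. Of these steps, only the edgeR test was tried on simulated counts. These held larger fold changes than those of the members and no admixed tissue. The ratios and list counts were not simulated. Intervals of counting error were not used, since counts without molecular identifiers understate the error.

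The members and the lists (4 of the pathway, 10 of cell types) were chosen with earlier results of these data known. Named genes are the members, the up to 4 genes of lowest p-value of each pathway list, the 2 of highest mean CPM of each cell type list, the 2 most correlated genes of each member (mean of at least 1 CPM, prior count 2) and Dnmt3a; exceptions are stated, and 1 named gene is not reported here.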

Additional observations from a re-analysis of the deposited data

How the results depend on the processing

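The count of members past the threshold, 1 lower, was 0 with upper quartile scaling, 2 with limma voom with quality weights, 0 to 2 with each library left out (0 without KO replicate 1 or KO replicate 2, 2 without KO replicate 3) and 4 without both WT replicate 2 and KO replicate 3; the count on the higher side was 0 under all 14 alternatives. At an unadjusted p-value under 0.05, limma voom gave 6 members as lower, as it did 2882 of 18177 genes. Without both libraries, edgeR gave 4 members an adjusted p-value under 0.05, as it did 1973 of 18549 genes. Of all genes in the main fit, 1064 were past the threshold as lower and 564 as higher. These counts were 1652 lower with no filter beyond 1 count, 855 higher with limma voom, 1962 lower and 946 higher without both libraries, and 551 to 1650 lower and 280 to 1021 higher with each library left out (lowest without KO replicate 1 and KO replicate 2, highest without KO replicate 3). Under upper quartile scaling the median over all genes went from 0.01 to 0.11 (log2). The sign of Angpt2 turned with limma voom (-0.18), without WT replicate 3 (-0.03), without KO replicate 3 (-0.26) and without both libraries (-0.29), and that of Nrp1 with limma voom (-0.0072), without KO replicate 3 (-0.26) and without both (-0.10). With each library left out, Angpt2 ran from -0.26 to 0.16 and Nrp1 from -0.26 to 0.44. The 4 ratios moved by less than 1 SD, which was wide: with each library left out, Angpt2 to Angpt1 (0.67) ran from 0.27 without WT replicate 3 to 1.27 without WT replicate 2, and Flt1 to Kdr (-0.14) from -0.28 without KO replicate 1 to -0.07 without KO replicate 2. The sign turned for Vegfa to endothelial markers (-0.25) without WT replicate 2 (0.16) and for Kdr to endothelial markers (0.08) without KO replicate 2 (-0.06) or WT replicate 1 (-0.0002). The causes were not tested. With the replicate number as a block, 573 genes were lower and 372 higher. The count of members stayed at 1 and Angpt2 turned to -0.017. Deviations from the group means correlated at r = 0.0318, -0.152 and -0.201 between same-numbered lesions. With groups of 3 and admixed tissue in single libraries, these values cannot tell whether the numbers pair the samples. The labels do not say it either.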
